A study of Drosophila melanogaster with 9 samples.

Results

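The pickpocket genes of *Drosophila melanogaster* encode the subunits of the degenerin/ENaC family of sodium channels. Their RNA was followed here in larval dorsal organs, the olfactory organs of the larval head. The members were taken by name alone: every gene called *ppk* with or without a number, together with *rpk* (ripped pocket) and *Nach*, which is also known as *ppk4*. This gave 31 genes of the 17421 in the files, and the name rule uses no measured value. The study asked whether ion channel genes are expressed differently in dorsal organs that lack Orco, the co-receptor that most odorant receptors need. It held 5 *Orco* mutant and 4 wild-type samples of 20 dorsal organs each, from larvae of the third instar, and each sample was made into 1 library. Both genotypes were *w1118* and carried the Orco-Gal4 driver with the UAS-mCD8-GFP reporter on both copies of the chromosome. The *Orco* mutant larvae were in addition homozygous for the null allele *orco1*. The driver marks the olfactory receptor neurons (ORNs), but whole GFP-positive organs were picked by hand after collagenase treatment. A library therefore held ORNs with glia, support cells and any tissue left attached, and fewer cells of a type and less RNA per cell cannot be told apart in it.

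Degenerin/ENaC subunits assemble into cation channels that are blocked by amiloride and let sodium into the cell, and the subunits that combine decide which stimulus opens the pore. In fly larvae, *ppk* and *ppk26* are best known from class IV dendritic arborization neurons, the nociceptors of the body wall, where their products act together in the response to harsh touch. In adult flies, *ppk23*, *ppk25* and *ppk29* act in taste neurons that detect contact pheromones, and *ppk25* is also used in some adult ORNs. *ppk28* serves the taste of water, *ppk11* and *ppk19* serve salt taste in larvae, and *Nach* and *ppk11* help to clear liquid from the airways. *rpk* is known from the ovary and early embryo.

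The libraries held 4090474 to 9157645 counts in *Orco* mutant and 4432839 to 7005182 counts in wild-type samples, of which rows named as rRNA took 33.3% to 53.8%. These are estimated counts from a full-length cDNA method that amplifies small amounts of RNA and marks neither single molecules nor strand, so bounds drawn from counts below cover counting error only. Levels are given in CPM, which set the counts of a gene against the size of its library after scaling with TMM. *Orco* itself had 0 to 16 counts in the *Orco* mutant libraries and 1025 to 1819 in the wild-type libraries. The common biological coefficient of variation was 0.996, which means that a typical gene varied between samples of 1 genotype by about as much as its mean. Mitochondrial genes took 0.6% to 15.4% of the counts in *Orco* mutant samples, where *Orco* mutant 5 had the most, and 2.5% to 5.4% in wild-type samples. The summed level of 5 general neuron markers (*elav*, *nSyb*, *brp*, *Syt1*, *Syx1A*) was 182 to 524 CPM in *Orco* mutant and 188 to 423 CPM in wild-type libraries. That of 3 olfactory neuron markers besides *Orco* (*Ir25a*, *Or42a*, *Or42b*) was 58.2 to 214 CPM in *Orco* mutant and 74.3 to 89.8 CPM in wild-type libraries. These 3 markers went different ways, and *Ir25a*, also counted below among channel genes of touch, pain and taste, is not particular to ORNs. In *Orco* mutant 1 and 3, with the lowest and highest sums, *Ir25a* alone had 58.2 and 214 CPM. The mean of *Ir25a* was 98.6 CPM (SD 65.4) in *Orco* mutant and 52.3 CPM (SD 30.5) in wild-type libraries. *Or42a* had 3.4 CPM (SD 5.45) in *Orco* mutant and 14.1 CPM (SD 7.66) in wild-type libraries. *Or42b* had 0.126 CPM (SD 0.282) in *Orco* mutant and 15.4 CPM (SD 17.6) in wild-type libraries. Markers of other tissues were present in both genotypes. The 4 glial genes summed to 1170 to 2420 CPM in *Orco* mutant and 992 to 1480 CPM in wild-type libraries, and 5 muscle genes to 57.8 to 1180 CPM in *Orco* mutant and 211 to 1630 CPM in wild-type libraries.

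Of the 31 pickpocket genes, 29 had at least 1 count in some library, while *ppk8* and *ppk15* had none. The genes *ppk23*, *ppk26*, *ppk*, *ppk6* and *ppk17* were the 5 seen in all 9 libraries, which is a smaller share than among all genes with a count, where 40.7% were seen in every library. The other 24 genes were seen in some libraries and listed at 0 in the rest. The *Orco* mutant libraries 1 to 5 held counts for 14, 20, 8, 28 and 15 pickpocket genes, and the wild-type libraries 1 to 4 for 16, 16, 13 and 12. *Orco* mutant 3 showed the fewest and *Orco* mutant 4 the most, and the same libraries held the fewest and the most genes of any kind (6790 and 10935). Brought to the depth of the smallest library, at 2154103 counts outside rRNA, *Orco* mutant 4 would still be expected to show 26.6 pickpocket genes and wild-type 1, the highest wild-type library, 15.7. The mean number was 17.0 ± 7.48 in *Orco* mutant (SD, n = 5) and 14.2 ± 2.06 in wild-type libraries (SD, n = 4), a difference of 2.75 that is smaller than the spread between the *Orco* mutant samples and was 0.00 without *Orco* mutant 4.

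**Figure D1:**
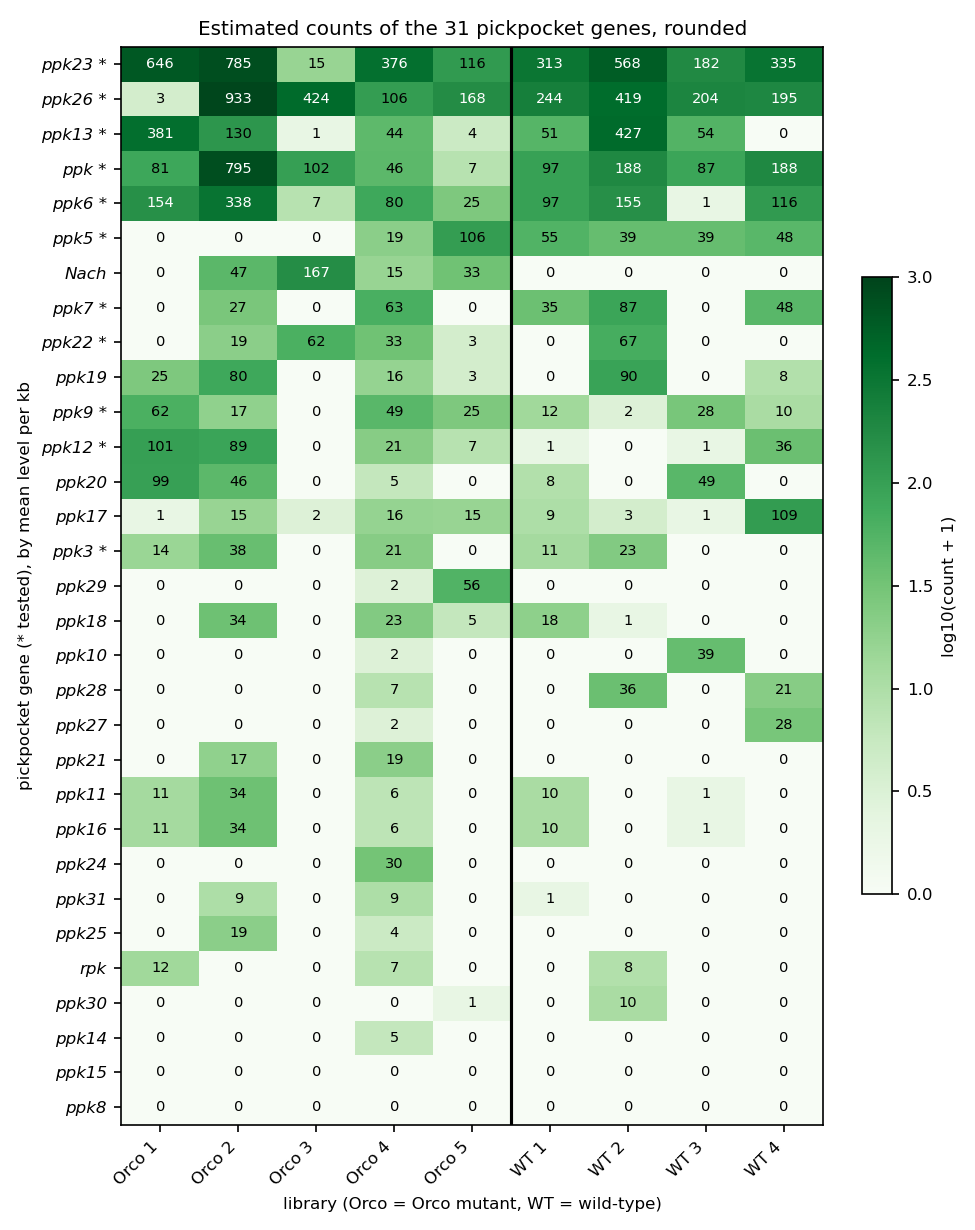
Estimated counts of the 31 pickpocket genes (rows, by mean level per kb over all libraries, tested genes marked with a star) in 5 *Orco* mutant and 4 wild-type libraries (columns), with the rounded count printed in each cell and shaded as log10(count + 1). The upper rows hold counts in most libraries, while most cells of the lower rows hold 0.

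There were 6 genes with counts in *Orco* mutant libraries alone: *Nach*, *ppk29*, *ppk21*, *ppk24*, *ppk25* and *ppk14*. None had counts in wild-type libraries alone. Among all genes with a count, 14.3% were listed only in *Orco* mutant and 3.65% only in wild-type libraries, and the number of libraries and their depth differ between the genotypes. For 13 of the 29 genes seen, a single library held over 50% of the counts, against 29.4% of all genes with a count. A pickpocket gene was thus often seen through 1 sample of 20 organs.

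The pickpocket genes together were a small part of the RNA, at 0.0198% to 0.0653% of the counts outside rRNA in a library. *ppk23*, *ppk26* and *ppk* supplied 61.4% of the 12417 counts of the family. The summed level of all pickpocket genes was 195.1, 287.6, 215.0, 130.2 and 142.2 CPM in *Orco* mutant libraries 1 to 5, and 216.9, 376.4, 145.3 and 148.4 CPM in wild-type libraries 1 to 4. The ranges overlapped, with the highest sum in wild-type 2 and the lowest in *Orco* mutant 4. The means were 194.0 ± 63.2 CPM in *Orco* mutant (SD, n = 5) and 221.7 ± 108.3 CPM in wild-type libraries (SD, n = 4), and the difference of -27.7 CPM was smaller than the spread within either genotype. Without wild-type 2 it was 23.8 CPM.

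**Figure D2:**
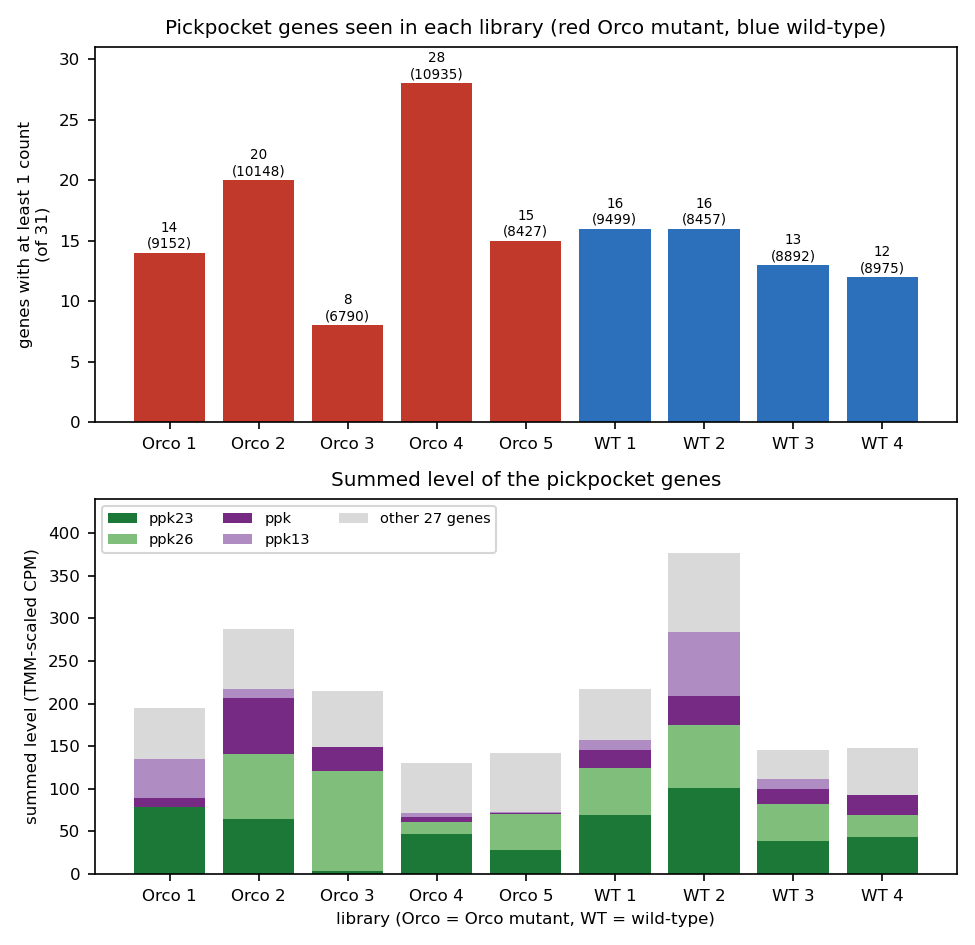
Upper panel, number of pickpocket genes with at least 1 count in each library, with the number of all genes seen in parentheses; lower panel, summed level of the pickpocket genes in CPM, with *ppk23*, *ppk26*, *ppk* and *ppk13* shaded. *Orco* mutant 4 shows 28 of the 31 genes but has the lowest sum, 130.2 CPM.

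Per kb of the longest transcript, *ppk23* and *ppk26* stood highest, at 25.3 and 23.7 CPM per kb on average over the 9 libraries. They were followed by *ppk13* (11.9), *ppk* (9.41), *ppk6* (8.83), *ppk5* (4.86) and *Nach* (4.01), and the other genes had means of 2.56 CPM per kb or less. *ppk23* was the highest member by CPM in *Orco* mutant 1 and 4 and wild-type 1, 2 and 4, and *ppk26* in *Orco* mutant 2, 3 and 5 and wild-type 3. The order among neighbours is loose. *ppk23* had 21.4 ± 14.0 CPM per kb in *Orco* mutant (SD, n = 5) and 30.2 ± 13.7 in wild-type libraries (SD, n = 4), and *ppk26* had 23.8 ± 22.8 in *Orco* mutant and 23.6 ± 9.82 in wild-type libraries, so that these genes did not differ beyond their spread. Nor did *ppk*, *ppk13* and *ppk6*, whose genotype means lay between 7.96 and 16.3 CPM per kb with SDs of 2.6 to 22.8.

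The nociceptor gene *ppk26*, on chromosome 3L from 7456149 to 7458608, had 0.366, 76.5, 116.8, 13.4 and 41.6 CPM in *Orco* mutant libraries 1 to 5 and 54.5, 74.3, 43.2 and 25.3 CPM in wild-type libraries 1 to 4. *Orco* mutant 1 held only 3 counts of it, whereas *Orco* mutant 3 had the highest level of all, and the wild-type libraries lay within the range of the mutant ones. Its means were 49.8 ± 47.6 CPM in *Orco* mutant (SD, n = 5) and 49.3 ± 20.5 CPM in wild-type libraries (SD, n = 4), and its log2 fold change, *Orco* mutant over wild-type, was 0.01 (standard error 0.94, 95% interval -2.03 to 2.05, edgeR adjusted p = 0.999). Its partner *ppk*, on chromosome 2L from 14378218 to 14381172, had 9.87, 65.2, 28.1, 5.80 and 1.74 CPM in *Orco* mutant libraries and 21.7, 33.3, 18.4 and 24.4 CPM in wild-type libraries. Here *Orco* mutant 2 was highest and *Orco* mutant 5, with 7 counts, lowest, and again the wild-type libraries lay between them. The log2 fold change of *ppk* was -0.14 (standard error 0.88, 95% interval -2.04 to 1.76, edgeR adjusted p = 0.997), and its sign turned without any of 4 libraries.

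The ratio of *ppk26* to *ppk* per kb was 0.0437, 1.38, 4.90, 2.72 and 28.3 in *Orco* mutant libraries 1 to 5 and 2.96, 2.63, 2.76 and 1.22 in wild-type libraries 1 to 4. The wild-type libraries kept the genes in a narrow ratio, and *Orco* mutant 1 and *Orco* mutant 5 lay far below and far above it, each through the near absence of one of the pair. On the log2(CPM + 1) scale the SD of *ppk26* was 2.57 in *Orco* mutant and 0.64 in wild-type libraries, and that of *ppk* was 1.79 in *Orco* mutant and 0.35 in wild-type libraries. Wider spread in the mutant was the common case in these data. It held for 6 of the 11 tested pickpocket genes (54.5%) and for 65.0% of all genes tested.

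The 4 markers fixed for dendritic arborization neurons (*kn*, *ab*, *Gr28b*, *ct*) are not all particular to class IV. They summed to 32.4 to 110 CPM in *Orco* mutant and 13.8 to 58.9 CPM in wild-type libraries, and 0 of the 4 passed the test. The sum was 81.3 CPM in *Orco* mutant 1, where *ppk26* was lowest, and 87.4 CPM in *Orco* mutant 3, where *ppk26* was highest. These similar sums came from different genes and are no measure of class IV neurons. *Orco* mutant 1 had 50.4 CPM of *ab* and 2.68 CPM of *kn*, whereas *Orco* mutant 3 had 0.276 CPM of *ab* and 68.9 CPM of *kn*. *Gr28b* was at 0 in *Orco* mutant 3 and in wild-type 2 and 4, and the other 3 markers had counts in every library. The part of class IV neurons in the levels of *ppk26* and *ppk* was not tested.

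The pheromone-sensing gene *ppk23*, on chromosome X from 17566552 to 17569228, had 78.7, 64.4, 4.13, 47.4 and 28.8 CPM in *Orco* mutant libraries 1 to 5 and 69.9, 100.7, 38.5 and 43.5 CPM in wild-type libraries 1 to 4. *Orco* mutant 3 stood low with 15 counts, and *Orco* mutant 5 also lay below every wild-type library. *Orco* mutant 1, 2 and 4 lay within the wild-type range. The means were 44.7 ± 29.4 CPM in *Orco* mutant (SD, n = 5) and 63.2 ± 28.6 CPM in wild-type libraries (SD, n = 4). The log2 fold change was -0.50 (standard error 0.65, 95% interval -1.90 to 0.91, edgeR adjusted p = 0.997), with the smallest standard error of the 11 genes tested.

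The files also hold estimated counts for 4 transcripts of *ppk23*. Over all libraries ppk23-RD took 75.1% of the counts of the gene, ppk23-RC 14.5% and ppk23-RA 10.5%, and ppk23-RB was listed at 0. The share of ppk23-RD was 86.2%, 72.7%, 100%, 35.4% and 46.6% in *Orco* mutant libraries 1 to 5 and 79.9%, 83.3%, 90.3% and 85.5% in wild-type libraries 1 to 4. *Orco* mutant 4 and *Orco* mutant 5 had over 50% of their counts on ppk23-RC, at 55.6% and 53.4%, while the wild-type libraries had 0% to 16.7% on it. The ranges overlapped, the 100% of *Orco* mutant 3 rests on 15 counts, and a split between transcripts that share most of their bases is an estimate.

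**Figure D3:**
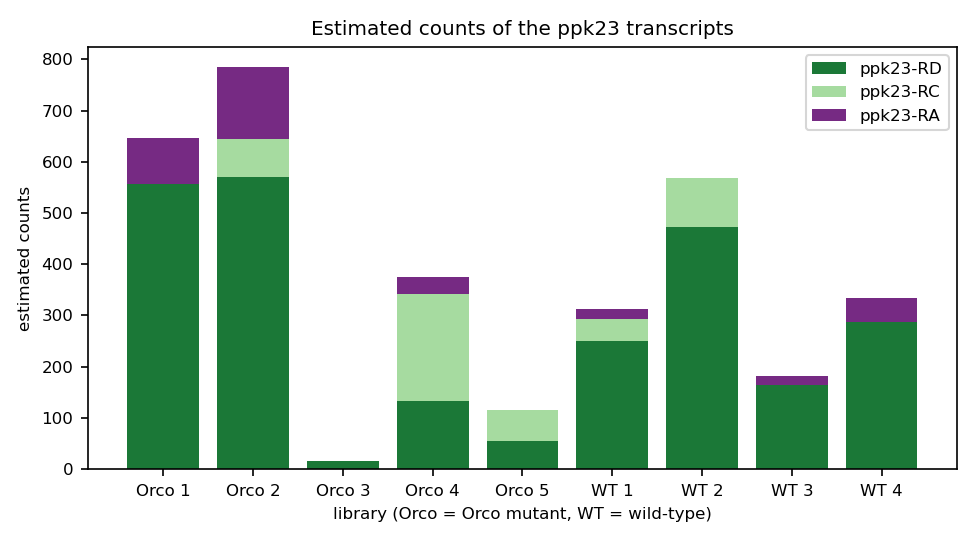
Estimated counts of the *ppk23* transcripts RD, RC and RA (stacked) in 5 *Orco* mutant and 4 wild-type libraries; RB was listed at 0. RD is the main transcript in 7 of the 9 libraries, and RC in *Orco* mutant 4 (55.6%) and *Orco* mutant 5 (53.4%).

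The genes known to work beside *ppk23* in adult taste neurons were nearly absent. *ppk29* had 56 counts in *Orco* mutant 5, 2 in *Orco* mutant 4 and 0 in the other 7 libraries. It overlaps *sei* and *CG13563*, both on the opposite strand, by at most 119 bases with either. Without strand the reads of these stretches cannot be assigned. *ppk25* had 19 counts in *Orco* mutant 2, 4 in *Orco* mutant 4 and 0 elsewhere. A level of either gene in wild-type dorsal organs was not detectable at this depth.

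*ppk13*, on chromosome 2L from 21086790 to 21088751, ranged widely within both genotypes. It had 46.4, 10.7, 0.276, 5.55 and 0.991 CPM in *Orco* mutant libraries 1 to 5 and 11.4, 75.7, 11.4 and 0 CPM in wild-type libraries 1 to 4. *Orco* mutant 1 and wild-type 2 stood far above the other libraries of their genotype. The log2 fold change was -0.94 (standard error 1.47, 95% interval -4.13 to 2.25, edgeR adjusted p = 0.997) and 0.76 without wild-type 2.

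*ppk6*, on chromosome 2R from 20245760 to 20247624, had 18.8, 27.7, 1.93, 10.1 and 6.20 CPM in *Orco* mutant libraries 1 to 5 and 21.7, 27.5, 0.212 and 15.1 CPM in wild-type libraries 1 to 4. Wild-type 3 held 1 count of it, and the other 3 wild-type libraries lay above the median *Orco* mutant library. Its log2 fold change was -0.31 (standard error 1.09, edgeR adjusted p = 0.997) and 0.08 without wild-type 2.

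*ppk5*, on chromosome 3L from 21534660 to 21536861, had an even level in wild-type and a patchy one in *Orco* mutant organs. It had 0, 0, 0, 19 and 106 counts in *Orco* mutant libraries 1 to 5, against 55, 39, 39 and 48 counts in wild-type libraries 1 to 4. In CPM these were 0, 0, 0, 2.40 and 26.3 in *Orco* mutant and 12.3, 6.92, 8.25 and 6.24 in wild-type libraries, so that 4 *Orco* mutant libraries lay below every wild-type library and *Orco* mutant 5 lay above all of them. The means were 5.73 ± 11.5 CPM in *Orco* mutant (SD, n = 5) and 8.42 ± 2.70 CPM in wild-type libraries (SD, n = 4). The log2 fold change was -0.56 (standard error 1.75, 95% interval -4.36 to 3.24, edgeR adjusted p = 0.997), while limma-voom gave -4.23 (adjusted p = 0.462, unadjusted p = 0.0195). DESeq2 gave -0.55 but no p for this gene. Without *Orco* mutant 5 the edgeR value was -3.75 (edgeR adjusted p = 0.804, unadjusted p = 0.0576), and the genotypes then no longer overlapped, as was true of 5.01% of all genes with a count in the same 8 libraries. *Orco* mutant 5 was also the library with the highest mitochondrial share (15.4%) and the highest summed neuron markers (524 CPM), and the part of these in the *ppk5* level was not tested.

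The other 5 tested genes had 107 to 260 counts in all. *ppk7* had 0, 2.21, 0, 7.95 and 0 CPM in *Orco* mutant libraries 1 to 5 and 7.81, 15.4, 0 and 6.24 CPM in wild-type libraries 1 to 4. It was listed at 0 in 3 of 5 *Orco* mutant libraries and 1 of 4 wild-type libraries, and its log2 fold change of -1.83 (standard error 1.82, edgeR adjusted p = 0.997) was the most negative of the 11 tested. *ppk12* had 12.3, 7.30, 0, 2.65 and 1.74 CPM in *Orco* mutant libraries and 0.223, 0, 0.211 and 4.68 CPM in wild-type libraries. Most of its wild-type counts, 36 of 38, came from wild-type 4, and its log2 fold change of 1.88 (standard error 1.70, edgeR adjusted p = 0.997) was the most positive, and was 4.91 without wild-type 4.

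*ppk22* had 0, 1.56, 17.1, 4.16 and 0.743 CPM in *Orco* mutant libraries 1 to 5 and 0, 11.9, 0 and 0 CPM in wild-type libraries 1 to 4. All 67 of its wild-type counts were thus in wild-type 2. Without that library its level was at least 18.3-fold higher in *Orco* mutant libraries, with 3 counts over the wild-type libraries taken as the floor. That fold follows from leaving out the only wild-type library with counts, so it does not bear on a genotype difference. Of these 67, the 532-base transcript ppk22-RC was given 61.2 and the 1813-base transcript ppk22-RB 5.81, while *Orco* mutant 3, 4 and 5 held only ppk22-RB and *Orco* mutant 2 only ppk22-RC, with 19 counts. With all libraries the log2 fold change of *ppk22* was 0.65 (standard error 2.0, edgeR adjusted p = 0.997).

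*ppk9* had 7.55, 1.40, 0, 6.18 and 6.20 CPM in *Orco* mutant libraries 1 to 5 and 2.68, 0.355, 5.92 and 1.30 CPM in wild-type libraries 1 to 4, all of it from ppk9-RB. Its highest levels were in *Orco* mutant libraries, but wild-type 3 was close to them, and the log2 fold change was 0.74 (standard error 1.39, edgeR adjusted p = 0.997). *ppk3* had 1.71, 3.12, 0, 2.65 and 0 CPM in *Orco* mutant libraries and 2.46, 4.08, 0 and 0 CPM in wild-type libraries, with a log2 fold change of -0.10 (standard error 1.71, edgeR adjusted p = 0.998). Both genotypes held libraries with *ppk3* and libraries without it.

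**Figure D4:**
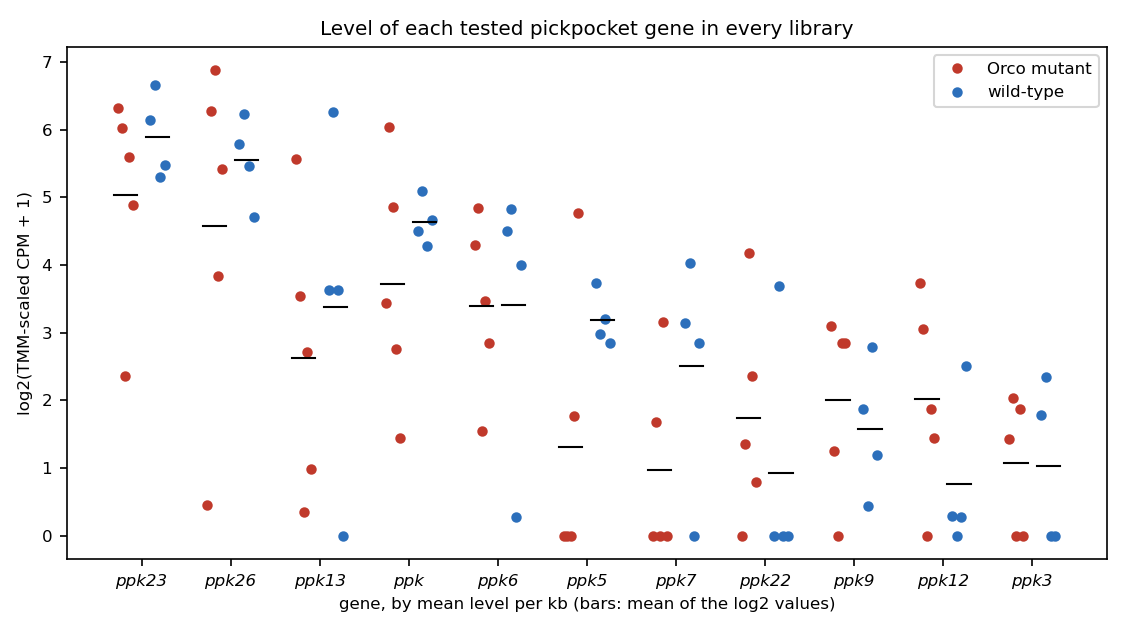
Level of each tested pickpocket gene in log2(CPM + 1), with 1 point per library, *Orco* mutant (red, n = 5) left of wild-type (blue, n = 4), and bars at the mean of the log2 values. The genotypes overlap for all 11 genes; for *ppk5*, 3 *Orco* mutant libraries lie at 0 while the wild-type libraries lie close together.

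Of the 11 pickpocket genes tested, 0 passed the test of *Orco* mutant against wild-type with edgeR, at an adjusted p under 0.05 over all 8160 genes tested. Over all genes 3 passed (0.0368%). At an unadjusted p under 0.05 there were also 0 pickpocket genes, where 4.96% of all genes lay below it, and limma-voom passed 0, with *ppk5* as the 1 gene at an unadjusted p under 0.05. The 11 genes are those that the default low-count filter of edgeR kept, as it did 64% of all genes with a count. Their log2 fold changes ran from -1.83 to 1.88 with a median of -0.14, beside a median of -0.00 over all genes tested, and 7 were negative and 4 positive, where 50.1% of all genes tested were negative. The standard errors were 0.65 to 2.0 and every 95% interval included 0, with lower ends of -5.79 to -1.78 and upper ends of 0.91 to 5.57. None of the intervals lay within a 2-fold change.

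No pickpocket gene had levels that did not overlap between the genotypes, while 2.73% of all genes with a count did. With DESeq2, 1 of the 20 pickpocket genes that it gave an adjusted p passed. This was *Nach*, which the low-count filter had left out of the edgeR test. DESeq2 passed 1.08% of the genes to which it gave an adjusted p, and 0.445% as higher in *Orco* mutant organs.

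**Figure D5:**
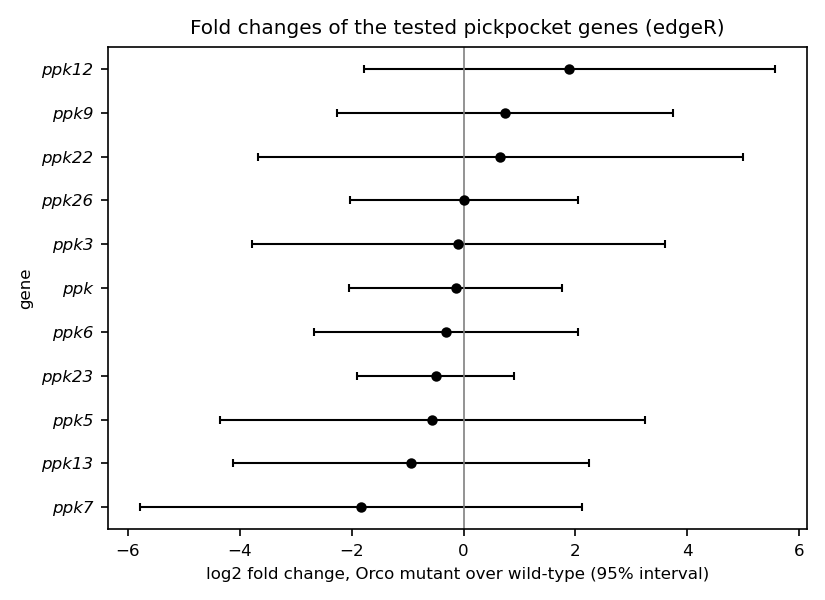
Log2 fold change, *Orco* mutant over wild-type, of the 11 tested pickpocket genes (points) with 95% intervals (lines) from edgeR, 5 against 4 libraries. All intervals cross 0, and the narrowest, of *ppk23*, runs from -1.90 to 0.91.

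*Nach*, on chromosome 2R from 16653205 to 16655046, had 0, 47, 167, 15 and 33 counts in *Orco* mutant libraries 1 to 5, against 0 counts in each of the 4 wild-type libraries. In CPM these were 0, 3.86, 46.0, 1.89 and 8.18 in *Orco* mutant libraries. The gene was thus seen in 4 of 5 *Orco* mutant libraries, over 50% of it in *Orco* mutant 3, and *Orco* mutant 1 held none, as the wild-type libraries did. With 3 counts over the wild-type libraries as the floor, its level was at least 54.7-fold higher in *Orco* mutant libraries, and at least 22.1-fold higher without *Orco* mutant 3. All counts were assigned to the transcript Nach-RA, and no other annotated gene overlaps it.

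The call of *Nach* depended on the tool and on 1 library. DESeq2 gave a log2 fold change of 8.54 with an adjusted p of 0.00793. With 1 library left out, its adjusted p ran from 1.02e-04 (without *Orco* mutant 1) to 0.152 (without *Orco* mutant 3), and only the fit without *Orco* mutant 3 missed the threshold. The edgeR test with no filter gave an unadjusted p of 0.00205 and an adjusted p of 0.503 (0.711 to 1.0 in the fits without a wild-type library, in which the filter kept the gene). Without *Orco* mutant 1, *Nach* would be a gene whose levels do not overlap between the genotypes, as were 3.71% of all genes with a count.

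Since *Nach* is best known from the airways, the 5 tracheal markers (*trh*, *btl*, *serp*, *verm*, *Gasp*) stand beside it. They summed to 594, 227, 385, 254 and 636 CPM in *Orco* mutant libraries 1 to 5 and to 285, 88.8, 331 and 531 CPM in wild-type libraries 1 to 4, and 0 of the 3 that were tested passed. The log2 fold changes of these 3 were 0.96 for *Gasp* (edgeR adjusted p = 0.997, unadjusted p = 0.057), 0.76 for *verm* and -1.38 for *serp*. Of the defining markers, *trh* was at 0 in wild-type 2 and 3 and *btl* in *Orco* mutant 3 and wild-type 1. The libraries with the highest sums, *Orco* mutant 5, *Orco* mutant 1 and wild-type 4, held 33, 0 and 0 counts of *Nach*, and wild-type 2, with the lowest sum, held 0. The part of tracheal cells in the *Nach* level was not tested.

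*ppk11*, which acts with *Nach* in the airways and with *ppk19* in salt taste, could not be measured on its own. It shares its annotated span with *ppk16* (chromosome 2L from 9771155 to 9775030, all 3212 exonic bases), and the files give both genes the same count in every library. That count was 11, 34, 0, 6 and 0 in *Orco* mutant libraries 1 to 5 and 10, 0, 1 and 0 in wild-type libraries 1 to 4. Before rounding, each gene had 33.5 in *Orco* mutant 2, 6.5 in *Orco* mutant 4 and 10.5 in wild-type 1. The reads of the shared span were thus divided evenly between the genes, and each count is only a share of them. *ppk19* had 25, 80, 0, 16 and 3 counts in *Orco* mutant libraries and 0, 90, 0 and 8 in wild-type libraries. Wild-type 2 alone held 90 of the 98 wild-type counts of *ppk19*, and 217 bases of the gene are shared with *Bub3* on the opposite strand.

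The water taste gene *ppk28* had 36 counts in wild-type 2, 21 in wild-type 4 and 7 in *Orco* mutant 4, and none in the other 6 libraries. The annotation places the non-coding gene *CR44053* on the opposite strand over all of its 2190 exonic bases, so even these counts cannot be given to *ppk28* alone. *rpk* had 12 and 7 counts in *Orco* mutant 1 and 4 and 8 in wild-type 2. It shares 1531 of its 2536 exonic bases with *CR44155* on the opposite strand. *rpk* lies 758 kb from *Orco* on chromosome 3R.

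*ppk17* and *ppk20* had more counts than some tested genes but in too few libraries at the level the filter asks for. *ppk17* had 1, 15, 2, 16 and 15 counts in *Orco* mutant libraries 1 to 5 and 9, 3, 1 and 109 in wild-type libraries 1 to 4. Wild-type 4 held 63.7% of its counts, and 69.6 of that library's 109 were assigned to ppk17-RB, a transcript listed at 0 in the other 8 libraries. *ppk20* had 99, 46, 0, 5 and 0 counts in *Orco* mutant libraries and 8, 0, 49 and 0 in wild-type libraries. *ppk18* had 0, 34, 0, 23 and 5 counts in *Orco* mutant libraries and 18, 1, 0 and 0 in wild-type libraries. These genes were high in 1 or a few libraries of either genotype, and with no filter the edgeR adjusted p of the 9 untested genes with at least 50 counts was 0.503 to 0.987.

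The remaining 9 genes with a count had 5 to 41 counts over all libraries. *ppk10* (39 of 41 counts in wild-type 3), *ppk27* (28 of 30 in wild-type 4) and *ppk30* (10 of 11 in wild-type 2) came almost wholly from 1 wild-type library. *ppk24* (30 counts) and *ppk14* (5 counts) were seen in *Orco* mutant 4 only, and *ppk21* (17 and 19 counts) in *Orco* mutant 2 and 4. *ppk31* had 9 counts in each of the same libraries and 1 in wild-type 1. Without the filter, 3 pickpocket genes had an unadjusted p under 0.05 with edgeR, *Nach* (0.00205), *ppk29* (0.034) and *ppk21* (0.046), where 7.52% of all genes with a count did, and 0 passed after adjustment (adjusted p of 0.503 to 0.591), where 0.0392% of all genes did. With the same floor, *ppk29* was at least 12.1-fold, *ppk21* at least 7.52-fold, *ppk24* at least 6.26-fold and *ppk25* at least 4.80-fold higher in *Orco* mutant libraries, each on counts from 1 or 2 libraries. Without its highest library *ppk21* was at least 4.55-fold (without *Orco* mutant 4) and *ppk25* at least 1.26-fold higher (without *Orco* mutant 2). *ppk29* kept 2 of 58 counts without *Orco* mutant 5 and *ppk24* none without *Orco* mutant 4, so no such fold can be given for them.

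The 31 genes lie on chromosome arms 2L (9 genes), 2R (7), 3L (3), 3R (9) and X (3), and some stand in close groups. *ppk21*, *ppk20*, *ppk30* and *ppk19* lie within 9.45 kb on 3R (29664779 to 29674223), *ppk18* and the pair *ppk11* and *ppk16* within 9.67 kb on 2L (9765357 to 9775030), and *ppk7* and *ppk14* within 4.35 kb on 2L (6352324 to 6356672). Totals over all libraries within the 3R group were 222 counts for *ppk19* and 207 for *ppk20*, but 36 for *ppk21* and 11 for *ppk30*. *ppk18* had 81 counts beside 62 for each of *ppk11* and *ppk16*. The reads of the span that *ppk11* and *ppk16* share were divided between them, so the span held more than either figure. *ppk7* had 260 counts beside 5 for *ppk14*.

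Other channel and neuron genes gave the setting. Of 13 further channel genes of touch, pain and taste neurons, all had a count, 9 were tested, 0 rose and 0 fell, and their median log2 fold change was 0.02. One of them, *Ir21a*, a receptor gene of cool-sensing neurons of the dorsal organ, had an unadjusted p under 0.05 (log2 fold change 1.16, standard error 0.34, edgeR adjusted p = 0.654). Of the 12 neuron genes linked to nociceptors and pheromone-sensing cells, 11 were tested, 0 rose and 0 fell, and the median was 0.13, beside -0.00 over all genes tested.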

How the data were processed

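Estimated counts per gene and per transcript were deposited for 9 libraries (5 *Orco* mutant, 4 wild-type), with 17421 genes each. The submitters' processing notes name CASAVA 1.8.2, cutadapt 1.9.1 and kallisto 0.43.0. The authors quantified single-end reads against the FlyBase transcriptome and summed transcripts per gene, so the deposited values are expected counts without normalization. A further *Orco* mutant sample, left out by the authors for low read number, was not analysed here. Genes were chosen by name, but the family, gene lists and tests were proposed with earlier results of these data known.

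Counts were rounded, which moved 4 pickpocket genes by more than 0.001. Genes were kept with filterByExpr (minimum count 10, minimum total 15), scaled with TMM and compared with the quasi-likelihood test of edgeR 4.0.16 (R 4.3.3), with Benjamini-Hochberg adjustment over all 8160 genes. Intervals and standard errors come from the coefficient without the prior count. P-values set the difference between the genotypes against the spread between these samples. Levels per kb use the longest transcript. For positions, 17224 genes were matched by identifier to Ensembl gene models of the Release 6 assembly. Of the files' rows, 138 are named as rRNA; they stayed in the main fit. All members are accounted for, with values in every library for tested genes and for untested genes with at least 50 counts. Alternatives were RLE factors, TMM without rRNA, DESeq2 1.42.0, limma-voom (limma 3.58.1), no filter, a minimum of 10 counts in 5 libraries, a block for the replicate number, and leaving out each library. The test was checked on simulated counts, with large changes set only in genes above the median level. That check does not tell how often smaller changes, or changes in sparse genes, would be found.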

Additional observations from a re-analysis of the deposited data

Results flagged for a closer look

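The libraries of each genotype were compared with each other for every pickpocket gene that was tested or had at least 50 counts, for the number of genes seen and for the summed level. Of these 44 sets of 4 or 5 values, 15 held 1 library far from the others, judged by its gap to the nearest library relative to the whole range. For the 20 pickpocket genes this was 37.5% of 40 sets, beside 16.6% of 18820 sets over all genes tested or with at least 50 counts. Chance gives about 1 in 20 for bell-shaped values, which does not hold for CPM of sparse genes with many zeros, and the sets share libraries. In the *Orco* mutant libraries these were *Nach* in *Orco* mutant 3 (46.0 CPM, next library 8.18), *ppk22* in *Orco* mutant 3 (17.1 CPM, next 4.16), *ppk13* in *Orco* mutant 1 (46.4 CPM, next 10.7), *ppk7* in *Orco* mutant 4 (7.95 CPM, next 2.21), *ppk28* in *Orco* mutant 4 (0.883 CPM, others at 0), *ppk5* in *Orco* mutant 5 (26.3 CPM, next 2.40) and *ppk29* in *Orco* mutant 5 (13.9 CPM, next 0.252). In the wild-type libraries they were *ppk13* in wild-type 2 (75.7 CPM, next 11.4), *ppk19* in wild-type 2 (16 CPM, next 1.04), *ppk22* in wild-type 2 (11.9 CPM, others at 0), *ppk17* in wild-type 4 (14.2 CPM, next 2.01), *ppk12* in wild-type 4 (4.68 CPM, next 0.223), *ppk18* in wild-type 1 (4.02 CPM, next 0.177) and *ppk11* and *ppk16*, which share their counts, in wild-type 1 (2.23 CPM, next 0.212).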

How the results depend on the processing

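The count of 0 pickpocket genes past the threshold held in each alternative but DESeq2, which passed 1 (*Nach*). The replicate numbers of the labels did not pair the samples (correlations of same-numbered samples from -0.103 to 0.028). With the replicate block 0 genes passed, the median log2 fold change was -0.24, and the sign turned for *ppk6* (0.35), *ppk26* (-0.88) and *ppk3* (0.90). *ppk5* was at -6.65 under the block (edgeR adjusted p = 1.0, unadjusted p = 0.0275). No wild-type sample has replicate number 5, so *Orco* mutant 5 added nothing to the genotype estimates under the block. That library held 106 of the 125 *ppk5* counts of the *Orco* mutant. The sign also turned with limma-voom for *ppk6* (0.68), *ppk26* (-1.52), *ppk3* (0.81) and *ppk13* (0.38), where the median was 0.38. With 1 library left out, 0 genes passed in edgeR, the number of genes without overlap was 0 to 1 and the median was -0.73 to 0.28. The log2 fold changes then ran from -1.11 to 0.16 for *ppk*, 1.47 to 4.91 for *ppk12*, -2.47 to 0.76 for *ppk13*, 0.20 to 7.95 for *ppk22*, -0.80 to -0.18 for *ppk23*, -0.58 to 0.33 for *ppk26*, -0.52 to 0.90 for *ppk3*, -3.75 to -0.23 for *ppk5*, -0.79 to 0.08 for *ppk6*, -3.59 to -1.18 for *ppk7*, 0.37 to 1.55 for *ppk9* and 6.70 to 8.88 for *Nach* with DESeq2, an alternative chosen after the data were seen. The low-count filter kept *ppk12* and *ppk22* in 6 and *ppk3* in 7 of these 9 fits; it dropped *ppk12* without *Orco* mutant 1, 2 or 4, *ppk22* without *Orco* mutant 2, 3 or 4, and *ppk3* without *Orco* mutant 2 or 4. The difference in genes seen per library was 0 to 5 and that in summed level -53.2 to 23.8 CPM. The causes were not tested. Depth and the spread between samples limit all 31 genes, and the low-count filter kept 20 of them out of the edgeR test.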
